A study of Caenorhabditis elegans with 2 samples.

Results

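Small nuclear RNA (snRNA) genes were examined as a class in chromatin immunoprecipitation followed by sequencing (ChIP-seq) of CEH-58, a homeodomain transcription factor of the nematode Caenorhabditis elegans. Members were the 129 genes with the biotype snRNA on the 6 nuclear chromosomes, of 46890 annotated nuclear genes in Ensembl release 115 on WBcel235. They comprised 18 sls-2 genes and 111 others, among them 12 sls-1 genes, 10 smy genes and the pair sup-6 and sup-39. The samples were 2 biological replicates of whole young adults at 65 hours, in 1 group, from strain OP808. Per the labels, OP808 carries the integrated transgene wgIs808, in which ceh-58 is joined to TY1, EGFP and 3xFLAG tags, with unc-119(+) in an unc-119 (tm4063) background. Chromatin, sonicated to 200 to 800 bp, was pulled down through the tag by an antibody to GFP. Both samples therefore carry the tagged copy, signal from all tissues of the worm is pooled, and no strain or condition stands against them.

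In splicing, snRNAs combine with proteins into small ribonucleoprotein particles (snRNPs) that recognise the ends of introns and assemble the spliceosome. Nematodes also splice a short leader from a separate RNA onto many messenger RNAs. The SL1 leader, from sls-1 genes, is joined to the first exon of many transcripts, and SL2 leaders, from sls-2 genes, mainly mark downstream genes of operons. The smy genes encode SmY RNAs, which are associated with trans-splicing in nematodes. Animal snRNA promoters carry a proximal sequence element a short way upstream of the start, to which the SNAPc complex binds.

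For each gene the highest candidate peak whose summit lay within 200 bp of the gene was read from the ranked list that compares the replicates. That list has 105945 candidates, most of which are weak, with a median signal of 22.0. The signal is the authors' own value per peak. A gene counted as listed where a summit of the conservative list, 483 reproducible peaks at an irreproducible discovery rate (IDR) of at most 0.01, lay within the same distance. Read depth of the libraries is unknown, and signals of the replicates are given without scaling. Nothing in the labels ties the biological replicates to separate dates or batches, so differences between them measure only the spread between these samples.

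Many snRNA genes share sequence with other copies, and 44 of the 129 have an identical one. The 129 genes held 94 distinct sequences, of 22 to 187 bp. At 80% identity they formed 31 families, of which 8 had at least 5 members and together took 103 genes, while 20 genes stood alone. The shortest member, mir-1831, is annotated as an snRNA gene of 22 bp and lies inside sup-39. As a measure of uniqueness, the share of a gene's 31-base words found once in the genome was computed for the other 128 genes. Its median was 83.05% in the 18 sls-2 genes (21.25 to 100) and 11.5% in the 110 other genes (0 to 100). No sls-2 gene lacked unique words, whereas 48 of the other genes did. With 200 bp to either side the medians were 89.7% in sls-2 genes and 76.7% in the others. How reads of repeated sequence were placed is not given in the sources used here, so the copy named for a peak is uncertain wherever the share is low.

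The sequences below are shown to set sls-2 genes with the same leader beside copies with other leaders and other signals, and to show a promoter word that 15 of the 18 sls-2 genes hold. All come from the WBcel235 genome of RefSeq, read in the direction of the gene, with 70 bases before the gene. Capitals mark the leader and, where it occurs 60 to 40 bases before the gene, the word TGTCNG. The genes sls-2.1 (chrII:5844795-5844974, plus strand), sls-2.2 (chrII:5543528-5543707, plus strand) and sls-2.3 (chrII:5544164-5544343, minus strand) share a leader of 22 bases. The neighbours sls-2.14 (chrIII:11090412-11090593, minus strand) and sls-2.15 (chrIII:11090940-11091121, plus strand) are 92.9% identical as genes. A low-signal copy, sls-2.12 (chrIV:5261843-5262022, plus strand), and an SL1 gene, sls-1.10 (chrV:17120694-17120861, minus strand), stand beside them.
sls-2.1: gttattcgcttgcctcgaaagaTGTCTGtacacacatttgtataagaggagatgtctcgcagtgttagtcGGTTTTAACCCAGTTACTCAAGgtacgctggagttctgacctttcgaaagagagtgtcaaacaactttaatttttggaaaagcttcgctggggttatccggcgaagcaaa
sls-2.2: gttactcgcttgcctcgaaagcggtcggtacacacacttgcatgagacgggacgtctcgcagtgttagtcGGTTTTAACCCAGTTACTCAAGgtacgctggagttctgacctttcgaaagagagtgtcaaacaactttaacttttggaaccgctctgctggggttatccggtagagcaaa
sls-2.3: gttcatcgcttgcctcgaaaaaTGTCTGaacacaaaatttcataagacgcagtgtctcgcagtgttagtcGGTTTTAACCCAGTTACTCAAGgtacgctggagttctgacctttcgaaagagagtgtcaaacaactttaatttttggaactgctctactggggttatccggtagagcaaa
sls-2.14: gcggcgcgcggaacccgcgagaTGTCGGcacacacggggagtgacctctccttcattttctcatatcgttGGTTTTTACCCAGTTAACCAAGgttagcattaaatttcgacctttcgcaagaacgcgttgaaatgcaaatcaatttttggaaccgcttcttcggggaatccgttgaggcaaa
sls-2.15: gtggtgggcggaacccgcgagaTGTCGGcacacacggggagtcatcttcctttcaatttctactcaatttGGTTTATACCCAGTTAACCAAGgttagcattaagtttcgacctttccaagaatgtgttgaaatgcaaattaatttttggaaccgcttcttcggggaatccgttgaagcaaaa
sls-2.12: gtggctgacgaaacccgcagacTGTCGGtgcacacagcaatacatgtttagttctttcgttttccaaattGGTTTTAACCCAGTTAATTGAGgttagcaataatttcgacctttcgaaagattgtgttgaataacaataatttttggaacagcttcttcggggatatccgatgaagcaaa
sls-1.10: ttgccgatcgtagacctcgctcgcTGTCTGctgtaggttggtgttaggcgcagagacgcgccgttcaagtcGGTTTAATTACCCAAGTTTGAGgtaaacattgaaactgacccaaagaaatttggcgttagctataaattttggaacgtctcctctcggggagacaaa

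Outside the sls-2 genes, listed genes fell in 4 families. Members of 3 of them are shown, to set listed genes beside an unlisted copy of one. The listed genes shown had signals of 60.1 to 65.7, against 88.8 at the highest snRNA gene. They are F11A5.14 (chrV:16225701-16225957, minus strand) from the family of 19 genes of 185 to 187 bp, and sup-6 (chrII:12944803-12945037, minus strand) from the family of 13. C52E4.8 (chrV:11980048-11980261, plus strand) and T11F9.15 (chrV:11478078-11478291, plus strand) have identical gene sequences of 144 bp, but only C52E4.8 carries TGTCNG in the stretch before it, as marked in capitals. The summit at C52E4.8 lay 101 bp beyond its 3′ end. Other genes were unlike this pair, since sls-2.2 was listed without the word and sls-2.3 held it unlisted. All 7 identical copies of a 187-bp sequence held it, and R05D7.6 alone was listed. Whether the word bears on listing was not tested.
F11A5.14: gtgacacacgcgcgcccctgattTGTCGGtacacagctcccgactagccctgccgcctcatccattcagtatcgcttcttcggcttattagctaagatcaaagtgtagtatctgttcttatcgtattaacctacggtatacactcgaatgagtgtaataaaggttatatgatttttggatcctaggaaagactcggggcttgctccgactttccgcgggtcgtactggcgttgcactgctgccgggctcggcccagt
sup-6: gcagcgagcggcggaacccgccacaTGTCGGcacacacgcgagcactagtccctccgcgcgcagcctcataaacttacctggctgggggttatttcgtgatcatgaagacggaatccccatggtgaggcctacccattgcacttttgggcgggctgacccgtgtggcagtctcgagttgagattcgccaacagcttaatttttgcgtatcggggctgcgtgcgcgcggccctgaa
C52E4.8: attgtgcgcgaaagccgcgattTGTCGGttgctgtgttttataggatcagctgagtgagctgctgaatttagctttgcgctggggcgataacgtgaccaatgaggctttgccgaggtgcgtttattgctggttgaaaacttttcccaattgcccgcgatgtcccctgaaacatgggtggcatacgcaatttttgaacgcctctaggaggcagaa
T11F9.15: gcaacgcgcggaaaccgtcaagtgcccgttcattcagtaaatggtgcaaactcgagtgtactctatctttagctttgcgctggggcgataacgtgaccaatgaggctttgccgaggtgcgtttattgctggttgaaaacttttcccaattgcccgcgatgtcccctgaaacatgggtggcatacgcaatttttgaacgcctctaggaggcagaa

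A candidate lay at most snRNA genes, and a listed summit at few. Of the 129 genes, 86 (66.7%) had a candidate within 200 bp, against 58.4% of all annotated genes, 79.1% of tRNA genes, 72.3% of snoRNA genes, 86.7% of protein-coding genes and 13.5% of piRNA genes. A longer gene offers a wider window for a summit, and median lengths were 109 bp for snRNA genes, 72 bp for tRNA genes, 130 bp for snoRNA genes, 2027 bp for protein-coding genes and 196 bp for all genes. No correction for length was made, so the shares are not on one footing. A listed summit lay at 10 snRNA genes (7.75%, 95% Clopper-Pearson interval 3.78 to 13.8), against 1.24% of all annotated genes, 10.5% of tRNA genes, 8.38% of snoRNA genes, 1.94% of protein-coding genes and 0.0195% of piRNA genes. Both shares of all annotated genes are lowered by the 15363 piRNA genes among the 46890. In the replicates' own thresholded lists a summit lay at 2 snRNA genes in replicate 1 and at 1 in replicate 2. These lists are shorter, with 156 peaks in replicate 1 and 92 in replicate 2 against 483. The share of all genes at them was not computed. Intervals cover counting error only, and copies that share sequence are not independent. The 86 genes lay at 83 distinct peaks, since 6 genes shared a peak with another member. The highest signal per gene had a median of 33.3 at the 86 snRNA genes, against 38.8 at tRNA genes, 32.6 at snoRNA genes, 33.3 at protein-coding genes and 30.9 at all genes with a candidate. Of the 86, 74 had a signal at or above the median of all candidates. That bar is low for a highest value per gene. The lower quartile over all annotated genes with a candidate was 23.0, also above that median.

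The sls-2 genes had candidates more often and with higher signals than the other snRNA genes, with ranges that overlapped. A candidate lay at 16 of 18 sls-2 genes (88.9%, interval 65.3 to 98.6), against 70 of 111 other snRNA genes (63.1%, interval 53.4 to 72.0). Listed summits lay at 4 sls-2 genes (22.2%, interval 6.41 to 47.6) and at 6 others (5.41%, interval 2.01 to 11.4). The median signal was 44.9 at the sls-2 genes with a candidate (26.5 to 69.2, n = 16) and 32.0 at the others (6.30 to 88.8, n = 70), a difference of 12.9. All 16 sls-2 genes with a candidate reached the median of all candidates, which lies below the lower quartile of 23.0 over all annotated genes with a candidate. These values were not particular to sls-2 genes. Candidates lay at 92.3% of the 13 genes of the sup-6 family and 89.5% of the 19 of the F11A5.14 family. The median signal was 49.3 in the C52E4.8 family (n = 4), and lower than at sls-2 genes in the other families of at least 5. Other sets had fewer candidates, down to 40% of smy genes and 8.33% of sls-1 genes. Without the 12 sls-1 genes, which have no unique words, 69 of the 99 other genes had a candidate (69.7%). The difference in medians was 6.72 with summits within 100 bp, and 5.135 and 6.85 in the own candidate lists of replicates 1 and 2, whose signals are on a smaller scale. Among genes whose 31-base words are all unique, the medians were 30.7 in 4 sls-2 genes and 22.2 in 10 others, a difference of 8.52. No test was made of these differences, since gene copies are not replicates.

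**Figure D1:**
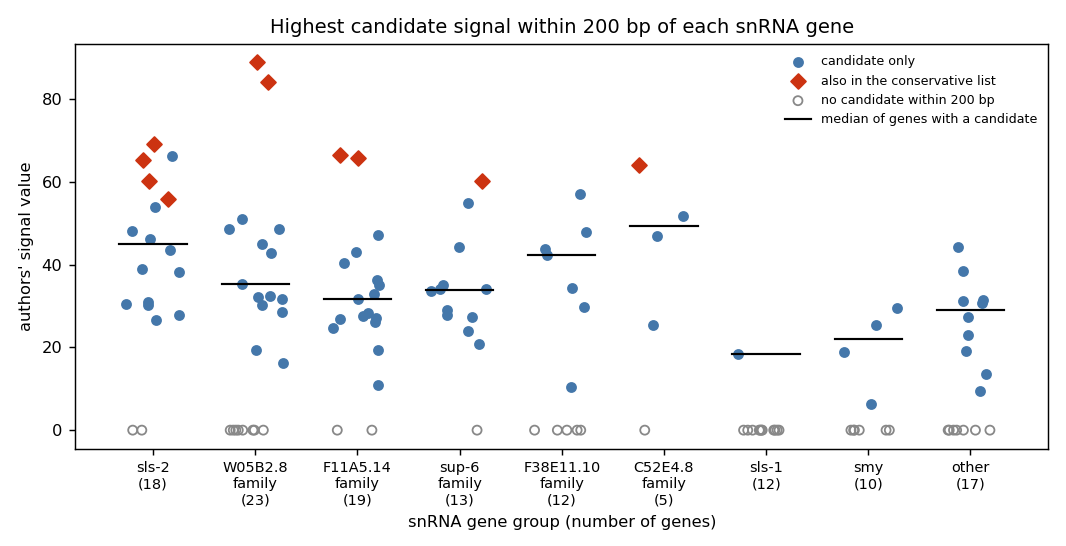
Highest candidate signal (the authors' value, vertical axis) within 200 bp of each of the 129 snRNA genes, by group, with the number of genes in brackets; bars are medians of the genes with a candidate, and open circles at 0 are genes without one. The sls-2 median was 44.9, and the highest points, 88.8 and 84.2, belong to W05B2.8 and F54D8.7.

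Of the sls-2 genes, 4 had a listed summit. At sls-2.1 the signal was 69.2, with 40.3 in replicate 1 and 35.6 in replicate 2 in their own candidate lists, and the summit lay 10 bases before the annotated start. It was also the single sls-2 gene at a summit in a replicate's own thresholded list, that of replicate 1. At sls-2.4, on chromosome I, the signal was 65.3, with 32.8 in replicate 1 and 39.9 in replicate 2. At sls-2.2 it was 55.8, with 38.1 in replicate 1 and 31.8 in replicate 2, and at sls-2.14 it was 60.3. The replicate 2 list gave 30.6 at sls-2.14, whereas replicate 1's own list held no candidate there, although the list comparing the replicates gives 37.7 and 30.6 in its unnamed replicate columns. The replicates thus lay close together at 3 of the 4 genes, and at the fourth one of them had no candidate of its own.

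The 4 genes with the shared leader, sls-2.1 to sls-2.4, had candidates at all 4 copies, with signals of 53.9 to 69.2, and 3 of the 4 were listed. The exception was sls-2.3, which lies 456 bp from sls-2.2 on the other strand. Its signal was 53.9, with 38.3 in replicate 1 and 19.3 in replicate 2, at an IDR of 0.0403. Between these copies the genes are 90.9% to 97.3% identical, whereas the 200 bp upstream are 59.0% to 64.0% identical and the 200 bp downstream 47.5% to 51.5%. The level that unrelated sequence reaches by this measure was not computed. Without these 4 genes the median sls-2 signal was 38.5 and the difference from other snRNA genes 6.53.

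The neighbours sls-2.14 and sls-2.15 lie 486 bp apart on opposite strands within an intron of W09D6.5, and each has a summit 144 bp beyond its 3′ end. At sls-2.15 the signal of 66.1 was above that of sls-2.14, with 37.3 in replicate 1 and 24.4 in replicate 2. Its IDR was 0.0118, just above the limit, and the peak was in the optimal list of pooled reads but not in the conservative one. In both genes 93.9% of 31-base words are unique. Both summits fall in exons of W09D6.5, so which gene the peaks belong to cannot be told apart.

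The remaining sls-2 genes had lower signals, and none was listed. At sls-2.8, whose sequence is fully unique, the signal was 48.1, with 27.5 in replicate 1 and 16.4 in replicate 2. Its summit lay 83 bp from the start of the coding gene Y75B8A.23, so which gene the peak belongs to cannot be told apart. At sls-2.5, in an intron of the glutamate receptor gene glr-2, it was 43.5, with 15.9 in replicate 1 and 31.8 in replicate 2. Nearby in glr-2, sls-2.18 had 30.5, with 25.9 in replicate 1 and 11.5 in replicate 2. There too, sls-2.16 had 30.3, with 22.6 in replicate 1 and no candidate in replicate 2's own list. The unnamed replicate columns gave 22.6 and 12.5 at sls-2.16. The summit at sls-2.16 fell in an exon of a coding gene, so its peak cannot be given to sls-2.16 alone. Neither order of the replicates held throughout, since replicate 1 was higher at sls-2.8 and sls-2.18 and replicate 2 at sls-2.5.

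At sls-2.13 the signal was 38.8, with 17.4 in replicate 1 and 25.1 in replicate 2, and at sls-2.10 it was 38.1, with 20.6 in replicate 1 and 14.0 in replicate 2. Replicate 2's own list had no candidate at sls-2.7 (46.2, with 28.9 in replicate 1) or at sls-2.12 (27.9, with 24.9 in replicate 1). The summit at sls-2.7 fell in an exon of a coding gene. Replicate 1's own list had none at sls-2.17 (26.5, with 11.6 in replicate 2) or at sls-2.9 (30.9, with 5.76 in replicate 2). The 2 sls-2 genes without a candidate were sls-2.6 and sls-2.11, of which sls-2.11 had 26.1 in replicate 1's own list. At sls-2.12 the replicate columns differed by a factor of 5.71 (24.9 and 4.35), the largest among sls-2 genes, and at F08G2.10 by 7.10 (29.0 and 4.09), the largest among the others.

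The gene sls-2.9 was the single member whose top summit lay within 200 bp of a tRNA or snoRNA gene, 25 bp from the tRNA gene M01E5.t1. Its signal therefore cannot be told apart from that of the tRNA gene. Elsewhere the nearest tRNA or snoRNA gene to a listed snRNA summit was 3712 bp away.

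Over all sls-2 genes the highest signal in each replicate's own list had a median of 26.8 in replicate 1 (n = 14) and 24.4 in replicate 2 (n = 13). Over the other snRNA genes it was 21.7 in replicate 1 (n = 64) and 17.5 in replicate 2 (n = 52). Among the 10 sls-2 genes found in both lists, replicate 1 was higher at 7. The higher of the replicate columns exceeded the lower by a median factor of 1.17 at the 10 listed snRNA genes and 1.48 at all 86 with a candidate, against 1.55 over all candidates. Listing rests on the reproducibility of the replicates, so a low factor at listed genes is part of how they were called.

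**Figure D2:**
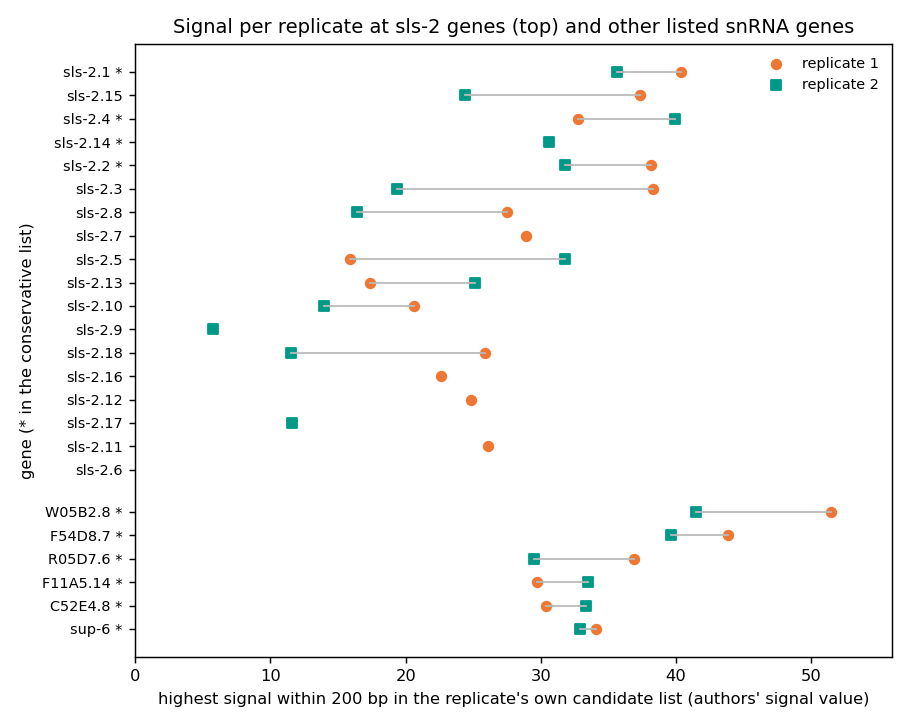
Highest signal within 200 bp (the authors' value, horizontal axis) in each replicate's own candidate list, for the 18 sls-2 genes in order of signal and, below them, the 6 other listed snRNA genes; circles are replicate 1, squares replicate 2, and a missing mark means no candidate. At sls-2.3 the replicates had 38.3 and 19.3, and at sup-6 34.1 and 32.9.

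The other listed genes were spread over 4 families. W05B2.8, in an intron of dhc-4, had the highest signal of any snRNA gene, 88.8, with 51.5 in replicate 1 and 41.5 in replicate 2, and an IDR of 0.00119. It was the single snRNA gene at a thresholded peak of both replicates' own lists. F54D8.7, of the same family, had 84.2, with 43.9 in replicate 1 and 39.6 in replicate 2. Both summits lay inside the gene, 34 and 47 bases from the start, and neither gene has a unique 31-base word.

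From the family of 185 to 187 bp, R05D7.6, on chromosome I in an intron of R05D7.3, had 66.6, with 36.9 in replicate 1 and 29.5 in replicate 2, but its summit lay 258 bases from the start, beyond the 3′ end. F11A5.14 had 65.7, with 29.7 in replicate 1 and 33.5 in replicate 2, and 47.8% of its words were unique. C52E4.8 had 64.0, with 30.3 in replicate 1 and 33.3 in replicate 2, and was not in the optimal list. Its summit lay 639 bp from the start of snr-4, which encodes a core Sm protein of snRNPs, and was counted for both genes. The gene sup-6, known from U1 snRNA suppressor alleles, had 60.1, with 34.1 in replicate 1 and 32.9 in replicate 2, at a summit 27 bases before the start. Of the 10 listed genes, replicate 1 was higher at 6 and replicate 2 at 3, with values of 29.7 to 51.5 in replicate 1 and 29.5 to 41.5 in replicate 2.

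Further unlisted genes had signals near the lowest of a listed snRNA gene, 55.8. Of those given next, only F38E11.10 exceeded it. F38E11.10, of the family of 12, had 57.0 and a peak in the optimal list, with 21.8 in replicate 2 and no candidate in replicate 1's own list. The unnamed replicate columns gave 36.7 and 21.8. Its summit lay 94 bp beyond the 3′ end, in an exon of a coding gene, so the peak cannot be given to F38E11.10 alone. F08H9.11, of the sup-6 family, had 54.8, with 25.9 in replicate 1 and 26.5 in replicate 2. F10D2.13, of the C52E4.8 family, had 51.6, with 31.9 in replicate 1 and 18.7 in replicate 2. C28A5.7, a copy identical to W05B2.8, had 51.0, with 20.3 in replicate 1 and 27.2 in replicate 2. At F08H9.11 the replicates nearly coincided, whereas at F10D2.13 they lay well apart.

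No member lay between 144 and 461 bp from a listed summit. The farthest members inside it were R05D7.6, C52E4.8 and sls-2.14, at 72, 101 and 144 bp from a listed summit. The nearest outside were sls-2.3 at 461 bp, sls-2.15 at 742 bp and Y69A2AR.36 at 2298 bp.

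Families differed in how many copies had a candidate. In the family of W05B2.8 (23 genes of 93 to 108 bp) a candidate lay at 15 of 23 genes, with a median of 35.35, and 2 were listed. In that of F11A5.14 it lay at 17 of 19, with a median of 31.6, and 2 were listed. The sup-6 family, of which 12 members hold ACTTACCTG near the start, had 12 of 13 and a median of 33.9, and 1 was listed. ACTTACCTG is known from the 5′ end of U1 snRNA, which pairs with the 5′ splice site. The reference calls most members small nuclear RNA genes with no type, so none is assigned. The family of F38E11.10 had 7 of 12 and a median of 42.4, with none listed, and that of C52E4.8 had 4 of 5 and a median of 49.3, with 1 listed. The smy genes had a candidate at 4 of 10, with a median of 22.05, and 17 unassigned genes in small families at 10, with a median of 29.0. Neither of these sets had a listed summit. Shares with a candidate were 65.2% in the W05B2.8 family, 58.3% in the F38E11.10 family and 58.8% in the unassigned genes. Their intervals (42.7 to 83.6, 27.7 to 84.8 and 32.9 to 81.6) included the 58.4% of all annotated genes. So did those of the C52E4.8 family (28.4 to 99.5) and the smy genes (12.2 to 73.8). The F11A5.14 family (89.5%, interval 66.9 to 98.7) and the sup-6 family (92.3%, interval 64.0 to 99.8) lay above 58.4%, a share that piRNA genes lower. Both of their intervals included the 72.3% of snoRNA genes, 79.1% of tRNA genes and 86.7% of protein-coding genes. The intervals of all these sets overlapped.

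The sls-1 genes had the lowest share with a candidate. It lay at 1 of 12, sls-1.12, with a signal of 18.4, which neither replicate's own list contained. No sls-1 gene has a unique 31-base word, and with 200 bp to either side the share reached at most 19.9%. Whether the low count comes from the repeats was not tested.

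Identical copies had unlike signals. Of the 14 copies of the 102-bp sequence, 10 had a candidate, with signals of 16.3 to 88.8 and a median of 32.0, and W05B2.8 alone was listed. In the 7 copies of the 187-bp sequence the range was 11.0 to 66.6, and R05D7.6 alone was listed. C52E4.8 had 64.0 and its copy T11F9.15 had 47.0. With 200 bp to either side and the gene itself included, the 14 copies were 44.1% to 83.7% unique, with W05B2.8 at the upper end. The flanks alone were not measured.

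Listed genes were not confined to unique sequence. Of 48 genes without a unique 31-base word, 29 had a candidate and 4 were listed. Of 59 genes with some unique words, 42 had a candidate and 6 were listed, and of 21 with all words unique, 14 had a candidate and none was listed (95% interval 0 to 16.1%). Median signals were 32.1, 38.5 and 28.8 in these 3 sets.

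**Figure D3:**
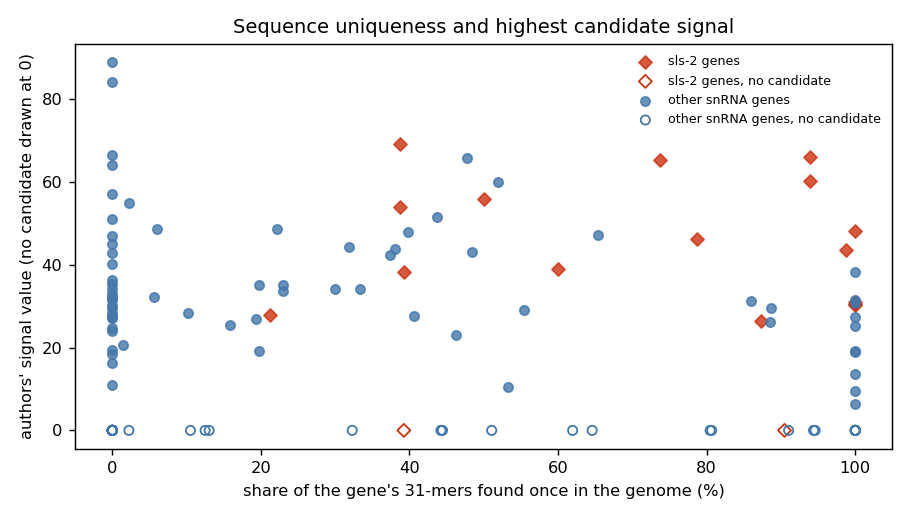
Highest candidate signal (the authors' value, vertical axis) against the share of the gene's 31-base words found once in the genome (horizontal axis), for the 18 sls-2 genes (diamonds) and 110 other snRNA genes (circles); open marks at 0 are genes without a candidate. Both values above 80, W05B2.8 and F54D8.7, lie at 0% unique words.

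Summits were not placed at one point of the gene. Of the 16 sls-2 summits, 3 lay upstream of the start, 4 inside the gene and 9 beyond its end, with a median position of 130.5 bases from the start. Of the 70 others, 24 lay upstream, 19 inside and 27 beyond the end, with a median of 82. Of the 10 listed genes, 2 had an upstream summit, 5 an internal one and 3 one beyond the end. Sonicated fragments of 200 to 800 bp are longer than these genes, and the position within a gene is therefore coarse.

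**Figure D4:**
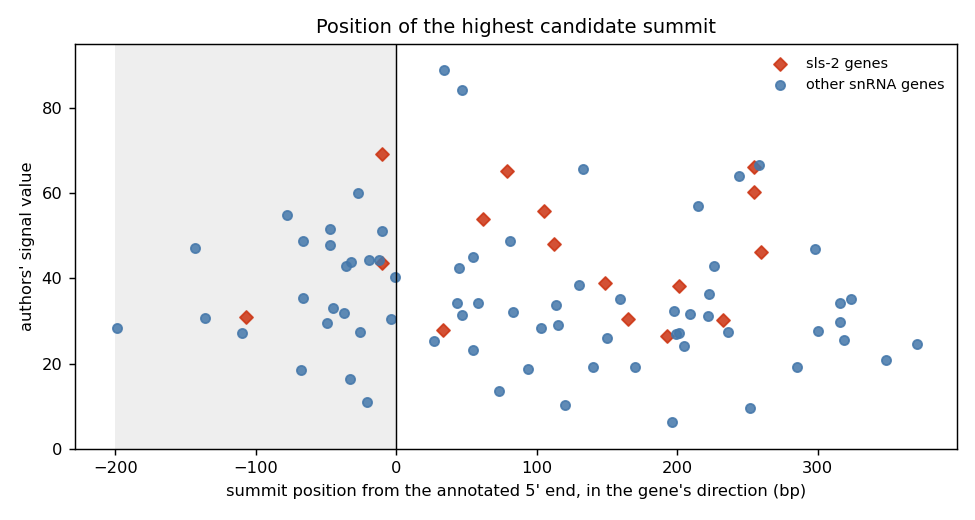
Position of the highest candidate summit from the annotated 5′ end in the direction of the gene (horizontal axis, bp; grey marks the upstream side) and its signal (the authors' value, vertical axis), for sls-2 genes (diamonds, n = 16) and other snRNA genes (circles, n = 70). The medians were 130.5 for sls-2 genes and 82 for the others, with points on both sides of the start.

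Part of the snRNA promoters shared short words. AACCCGC, searched in the direction of the gene from 250 bases before the start to 50 after it, was the 7-base word held by most promoters, 34 of 129 (26.4%), against 0.665% of all promoters of that length. On either strand it was in 26.4% of snRNA promoters, against 1.14% of all. Among these were 10 of 18 sls-2 promoters, and its median position was 58 bases before the start. In 32 promoters it began 70 to 50 bases before the start, a stretch chosen after the values were seen. TGTCNG, chosen after the values were seen, began 60 to 40 bases before the gene in 75 of 129 promoters (58.1%), against 1.60% of all genes, and on either strand in 58.9% and 2.57%. It was present in 15 of 18 sls-2 genes and 60 of 111 others, in 12 families. The pair of words cannot overlap on one strand. A match is a description of these letters and was not tested as a binding site.

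Genes with TGTCNG in that stretch had a candidate in 56 of 75 cases and were listed in 9, while 30 of the 54 without it had a candidate. Among all annotated genes, with the piRNA genes that lower both shares, 58.4% had a candidate and 1.24% a listed summit. The word and its stretch were chosen after the values were seen. Genes with and without it also differ in type, so the counts are a description only. Of the 10 listed genes, sls-2.2 lacked the word. The 10 smy genes lacked it and 10 of the 12 sls-1 genes held it. Since listed genes come from few families that share promoter sequence, the counts are not independent.

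snRNA genes were spread over the chromosomes unevenly, with 16 on I, 16 on II, 13 on III, 41 on IV, 40 on V and 3 on X. Candidates lay at 12, 14, 12, 22, 24 and 2 of them, and listed summits at 2, 3, 3, 0, 2 and 0. As shares, candidates lay at 75%, 87.5%, 92.3%, 53.7%, 60% and 66.7%, against 58.4% of all annotated genes. Listed shares were 12.5%, 18.75%, 23.1%, 0%, 5% and 0%, against 1.24% of all annotated genes. On IV the 95% interval of the listed share was 0 to 8.60%. The share of all genes, which piRNA genes lower, was not computed for each chromosome. Of the 129 genes, 55 lay in introns of protein-coding genes, 12 overlapped exons and 62 lay outside coding genes. Of the 18 sls-2 genes, 7 lay in introns and 11 outside.

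Protein genes of splicing were set beside the RNA genes. Of a list of 51 symbols for spliceosomal, trans-splicing and snRNA transcription proteins, 48 were matched, and 2 of these had a listed summit in the promoter (1000 bp upstream to 200 bp downstream of a start), against 0.801% of all protein-coding genes. They were snrp-200, a spliceosomal helicase, with a signal of 64.1, and snr-4, with 64.0 from the summit shared with C52E4.8.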

How the data were processed

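Anti-GFP ChIP-seq of 2 biological replicates was analysed from lists of peaks that the authors deposited on ce11, per the labels. For each peak the authors deposited a signal without a header, an IDR score (a scaled log with a top value of 1000) and a −log10 value of the global IDR. They also deposited −log10 p-value and q-value columns, which were not used here. Which aligner and caller were run is not given in the sources used here. Control alignments, which entered the authors' calls, were not analysed here. The 2 replicate signal columns of the ranked list do not name their replicates, so a value named by replicate was read from the candidates of that sample alone, within 200 bp of the gene. Each snRNA gene with a candidate has a value in both columns, also where a replicate's own list held none within that distance.

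Genes were taken from Ensembl release 115, with names by identifier from RefSeq, which matched 129 of 129. Identity was 100 times 1 minus the edit distance over the longer sequence, and families were joined at 80%. Words of 31 bases were counted on both strands. The members and lists were chosen with earlier results of these data known. Genes named were listed genes, all sls-2 genes, the 10 other genes of highest signal, those nearest the distance limit and those of largest replicate ratio. F08G2.10 falls under the last, and T11F9.15, sls-1.12, mir-1831, snr-4 and snrp-200 were named after their values were seen. Alternatives were other distances, lists, word lengths and replicates. Sequences of 1 family are not reported here. Scripts were tested on simulated data. Python 3.11.15, numpy 2.4.6, pandas 2.3.3, scipy 1.17.1, edlib 1.3.9.post1 and matplotlib 3.10.9 were used.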

Additional observations from a re-analysis of the deposited data

How the results depend on the processing

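Counts of genes with a candidate kept within 1.5 times under every alternative run, and no difference changed sign. The count of listed genes was 10, and 4 at the highest IDR score of 1000. It was 1 to 2 with 1 replicate's own thresholded list, but those lists hold only 156 and 92 peaks against 483. The sls-2 median (44.9) was 41.2 with the nearest candidate, 41.2 with genes lacking one at 0, 38.8 within 100 bp, 30.7 in 4 genes of unique sequence and 38.5 without sls-2.1 to sls-2.4, an alternative added after seeing the data. With 1 replicate left out it was 24.4 to 26.8. For other snRNA genes (32.0) the values were 24.7 with zeros, 22.2 in 10 genes of unique sequence and 17.5 to 21.7 with 1 replicate left out. The difference (12.9) was 9.63 with the nearest candidate, 16.5 with zeros, 6.72 within 100 bp, 8.52 in unique sequence, 6.53 without sls-2.1 to sls-2.4 and 5.135 to 6.85 with 1 replicate left out. The median unique share was 100% in sls-2 genes with 50-base and 100-base words and 89.7% with flanks, and in other genes 16.7%, 33.3% and 76.7%. The cause of these shifts was not tested. Signals of single replicates are on the scale of their own lists. No paired analysis was possible because there is 1 group. The unknown depth and the repeated copies limit how far a peak can be given to a gene.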
